A study of Mus musculus with 6 samples.

Results

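The interferon-inducible GTPases examined here were 10 genes of the Gbp and Irg families: Gbp2, Gbp3, Gbp6, Gbp7, Gbp9, Irgm1, Irgm2, Igtp, Iigp1 and Ifi47. They were taken by gene symbol, and all 10 were among the 23608 rows of the deposited count table. They were measured by bulk RNA-seq in 6 libraries of mouse leukemia cells driven by AE9a, a truncated AML1-ETO fusion protein. The cells carried 1 floxed and 1 intact allele of Usp18 and a UBCER-Cre transgene, in which a ubiquitous promoter drives a Cre recombinase that tamoxifen activates. Recipient mice with established leukemia received oil (genotype label Usp18+/f, 3 libraries) or tamoxifen (genotype label Usp18+/D, 3 libraries). Cells that were Lin-, c-Kit+ and GFP+ were sorted from the spleen 3 days after injections began. Both groups thus shared AE9a, the Cre transgene and a wild-type recipient. Tamoxifen was given to 1 group only, so the drug and the loss of the Usp18 allele cannot be told apart.

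Both families are GTPases that cells make in response to interferon. Guanylate-binding proteins, the Gbp family, are large dynamin-like GTPases that assemble on the membranes of vacuoles and bacteria, and some are anchored there by a prenyl lipid. Immunity-related GTPases, the Irg family, fall into regulators (Irgm1, Irgm2 and Igtp, also called Irgm3), which mark and protect the host's own membranes, and effectors (Iigp1, Ifi47 and Tgtp), which load onto the vacuoles of parasites and bacteria. Interferon receptors signal through JAK kinases to STAT and IRF factors, which act on 2 kinds of promoter element, the GAS and the ISRE. USP18 removes ISG15 from proteins and holds back signaling at the type I interferon receptor.

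Promoter sequences are shown first because an ISRE-type element stood close to the start of 6 of these genes and in some it was joined to a GAS. RefSeq gave a promoter, from 250 bases before to 50 bases after the transcript start, for 7 of the 10 genes. The ISRE core was searched as GAAA, any 2 bases and GAAA, on both strands, and the GAS core as TTCNNNGAA, which reads the same on both strands. An ISRE core was present in 6 of the 7 genes (not in Ifi47) and in 3.44% of all 32851 RefSeq mouse promoters. A GAS core was present in 3 of the 7 (Gbp7, Irgm2 and Igtp) and in 8.3% of all promoters. The stretches below are from GRCm38, read 5′ to 3′ in the direction of the gene, with the letters of every match in capitals. For Gbp3, which has 2 RefSeq starts, the promoter with matches is shown, and Gbp2 and Irgm1 are shown in 30 bases because GENCODE places an exon of the gene there. They lie at chr3:142620594-142620623 (Gbp2), chr3:142559924-142560023 (Gbp3), chr3:142530216-142530315 (Gbp7), chr11:48871428-48871457 (Irgm1, minus strand), chr11:58214857-58214956 (Irgm2), chr11:58199436-58199535 (Igtp) and chr11:49064233-49064332 (Tgtp2, minus strand, shown for comparison).
Gbp2: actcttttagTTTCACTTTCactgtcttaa
Gbp3: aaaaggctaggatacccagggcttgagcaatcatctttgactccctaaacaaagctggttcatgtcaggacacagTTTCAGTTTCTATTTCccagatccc
Gbp7: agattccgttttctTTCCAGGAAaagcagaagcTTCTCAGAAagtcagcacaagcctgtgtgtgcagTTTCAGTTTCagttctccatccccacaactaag
Irgm1: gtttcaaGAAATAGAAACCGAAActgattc
Irgm2: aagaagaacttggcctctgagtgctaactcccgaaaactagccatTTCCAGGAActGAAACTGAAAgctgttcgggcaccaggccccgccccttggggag
Igtp: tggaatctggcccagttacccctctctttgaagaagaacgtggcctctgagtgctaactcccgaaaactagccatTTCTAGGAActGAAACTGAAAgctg
Tgtp2: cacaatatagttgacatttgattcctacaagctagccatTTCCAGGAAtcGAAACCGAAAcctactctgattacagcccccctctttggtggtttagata

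In Irgm2 and Igtp the GAS core was followed, after 2 bases, by the ISRE core on the forward strand, so that both made a joined element of 21 bases. The same arrangement, in either orientation, was found in 5 of the 32851 promoters (0.0152%), and all 5 belonged to Irg genes of chromosome 11: Irgm2, Igtp, Tgtp1, Tgtp2 and Gm12185. Written with the fixed letters in capitals, the element was as follows.
Irgm2: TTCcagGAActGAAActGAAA
Igtp: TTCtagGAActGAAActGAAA
Tgtp1: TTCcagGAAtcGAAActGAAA
Tgtp2: TTCcagGAAtcGAAAccGAAA
Gm12185: TTCcagGAAtaGAAAgtGAAA
These 5 genes are relatives. Lined up on the element over 105 bases without gaps, the element included, Irgm2 and Igtp shared 97 letters and Tgtp2 and Gm12185 shared 99, while Irgm2 and Tgtp2 shared 59. In Gbp3 and in Irgm1, 2 ISRE cores overlapped each other by 4 bases. The matches describe letters and were not tested as binding sites.

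**Figure D1:**
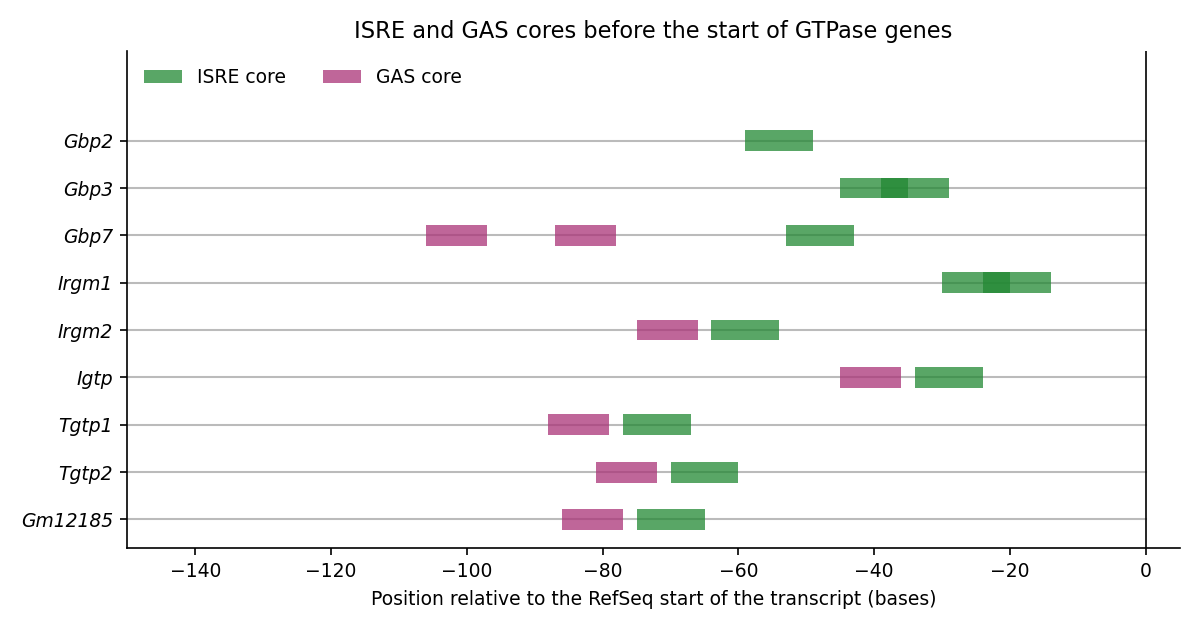
Positions of ISRE cores (green) and GAS cores (purple) relative to the RefSeq transcript start, in bases, for 6 listed GTPases and 3 other Irg genes; overlapping matches appear darker. The GAS core stood directly before the ISRE core in Irgm2, Igtp, Tgtp1, Tgtp2 and Gm12185, and 2 GAS cores stood farther before it in Gbp7.

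The libraries held between 17118964 and 20741399 counts. On the scale of log2 CPM, counts scaled to the size of each library, the oil libraries correlated with one another at r = 0.99 across genes. Library tamoxifen 4 stood apart from its group: its r was between 0.982 and 0.985 with the oil libraries, but 0.973 and 0.970 with tamoxifen 1 and tamoxifen 2. Results that rest on it are therefore also given without it. It was picked because it resembled oil, so calls gained without it are no independent check. The fit without it called 19.2% of all genes higher and 17.1% lower, against 1.75% and 0.267% with all libraries. Values of the 6 libraries are given in the order oil 1, 3, 4 and tamoxifen 1, 2, 4. Counts of Usp18 over the whole gene came to 9.12, 10.95 and 11.2 CPM with oil and to 15.1, 28.0 and 19.4 CPM with tamoxifen, a log2 fold change of 1.0 ± 0.23 (SE, edgeR adjusted p = 0.0739). Usp18 passed as higher with DESeq2 (adjusted p = 0.00199), and with edgeR without a filter on low counts (0.0395) and without tamoxifen 4 (0.00654). It did not pass with limma-voom (adjusted p = 0.115) or when any library other than tamoxifen 4 was left out (edgeR adjusted p between 0.107 and 0.295). The total was thus not lower in the libraries labelled as having lost 1 allele, and whole-gene counts do not show whether the floxed exons were lost. Kit, the sorted marker, was at 439 to 451 CPM with oil and 447 to 781 CPM with tamoxifen, and Cd34 was higher with tamoxifen (9.95 ± 1.66 against 96.3 ± 48.3 CPM, SD, n = 3 each, edgeR adjusted p = 0.0232), lowest of its group in tamoxifen 4. Kit passed as higher in edgeR without tamoxifen 4. Of 9 T and NK cell markers in the table, 7, including Cd3e and Ncr1, had no count in any library, and Nkg7 was higher (1.70 against 28.0 CPM, edgeR adjusted p = 0.0410). The calls of Cd34 and Nkg7 were lost with limma-voom (adjusted p = 0.0545 and 0.168) and when any library other than tamoxifen 4 was left out (edgeR adjusted p between 0.0577 and 0.209). Mpo, a myeloid blast marker, did not exceed 0.236 CPM in any library. Summed erythroid markers ranged from 3420 to 5570 CPM with oil and from 2740 to 7060 CPM with tamoxifen, and without tamoxifen 4 Alas2, Hba-a1, Hba-a2, Hbb-bs and Hbb-bt passed as higher in edgeR. No B cell, neutrophil, dendritic cell or endothelial marker had enough counts to test, and none of these lists summed to more than 0.878 CPM. Summed macrophage markers ranged from 4.56 to 8.67 CPM with oil and from 7.29 to 15.4 CPM with tamoxifen. None of the 7 tested was called in edgeR. Of the 7, 2 were higher at an unadjusted p under 0.05 and 1, Vcam1, with DESeq2, beside 12.6% and 6.14% of all genes. Vcam1 and Cd68 passed in edgeR without tamoxifen 4. Their part in the results below was not tested. In bulk RNA a smaller number of expressing cells and less RNA per cell cannot be told apart.

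The question for each GTPase gene was whether its RNA differed between tamoxifen and oil. All 8 genes with enough counts to test were higher on average with tamoxifen, beside 5809 of all 11614 genes tested, but the size of the difference was moderate, between 1.32-fold and 2.0-fold. Only Gbp7 passed the test (edgeR quasi-likelihood, Benjamini-Hochberg adjusted p under 0.05), that is 1 of 8 in a table where 1.75% of the 11614 genes tested were called higher and 0.267% lower. At an unadjusted p under 0.05, 7 of the 8 were higher (all but Iigp1) and none lower, beside 12.6% of all genes higher and 7.99% lower. In 6 of the 8, every tamoxifen library was above every oil library (not in Gbp2 and Iigp1), beside 13.3% of all genes. The median log2 fold change of the 8 was 0.68, and that of all genes tested was 0.0001. Gbp6 and Gbp9 were too low to test.

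**Figure D2:**
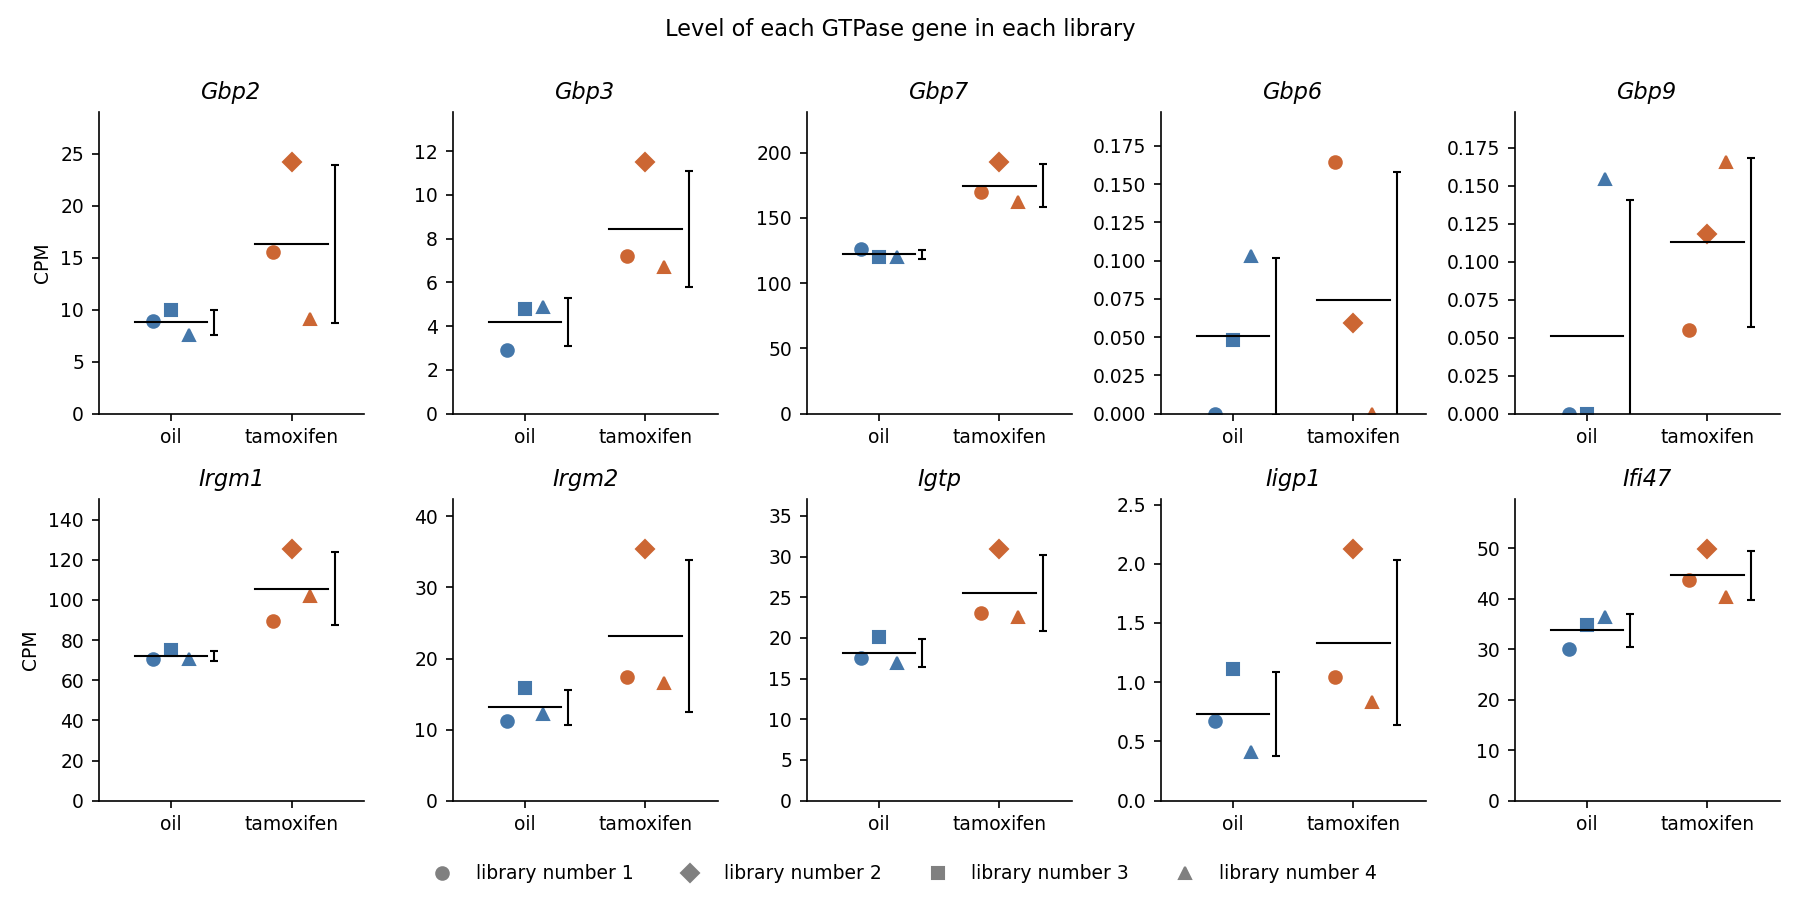
Level of each of the 10 GTPase genes in CPM, with a linear axis from 0 in each panel; points are libraries, marked by library number, horizontal lines are group means and bars are SD (n = 3), drawn only above 0. In 8 genes the highest point is tamoxifen 2, and Gbp6 and Gbp9 stay below 0.2 CPM.

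Among the guanylate-binding proteins, Gbp7 (chr3:142530342-142550149, plus strand) was the most abundant per length (below). This gene, known to promote oxidative killing and autophagy of bacteria in macrophages, was at 126, 120 and 120 CPM with oil and at 170, 193 and 162 CPM with tamoxifen. The oil libraries lay close together and all 3 tamoxifen libraries lay above them. Its log2 fold change was 0.52 ± 0.09 (SE, 1.43-fold), with an edgeR adjusted p of 0.0402. The call was lost with limma-voom, which called 0.413% of all genes higher (adjusted p = 0.0545), and whenever 1 library other than tamoxifen 4 was left out (edgeR adjusted p between 0.0945 and 0.204), and without tamoxifen 4 the adjusted p was 0.000544. Of the Gbp7 exon bases, 11.3% also belonged to the neighboring gene model Gm43802.

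Gbp2 (chr3:142620602-142638008), a prenylated member that is recruited to bacterial and parasite membranes, was at 8.89, 9.94 and 7.56 CPM with oil and at 15.6, 24.2 and 9.12 CPM with tamoxifen. Tamoxifen 4 lay among the oil libraries, so the groups overlapped, and the difference of 0.89 ± 0.32 (log2, SE) did not pass (edgeR adjusted p = 0.196). Without tamoxifen 4 it was 1.18 and passed (edgeR adjusted p = 0.00184). Without tamoxifen 2 it was 0.49 and did not pass (edgeR adjusted p = 0.489).

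Gbp3 (chr3:142560026-142573209), of the same cluster, was at 2.93, 4.8 and 4.89 CPM with oil and at 7.19, 11.5 and 6.69 CPM with tamoxifen. The groups did not overlap, and the fitted difference was the largest of the 8 listed genes (log2 fold change 1.0 ± 0.29, SE, edgeR adjusted p = 0.127). It passed with the DESeq2 Wald test (adjusted p = 0.0251), which called 6.14% of all genes higher, and, with edgeR, without tamoxifen 4 (adjusted p = 0.0103). Without tamoxifen 2 the log2 fold change was 0.72 and did not pass (edgeR adjusted p = 0.366).

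Gbp6 and Gbp9 belong to the second Gbp cluster, on chromosome 5 (chr5:105270702-105293698 and chr5:105077630-105139539, minus strand). Of the 150-base windows of Gbp6, 59.1% occur in other genes, most of them in the read-through model Gm43302, so its counts are uncertain. Gbp6 had 0, 1 and 2 counts with oil and 3, 1 and 0 counts with tamoxifen. Gbp9 had 0.5, 0 and 3 counts with oil and 1, 1.5 and 3 counts with tamoxifen. No library exceeded 3 counts of either, which is the limit that a count of 0 allows and corresponds to between 0.145 and 0.177 CPM, so neither gene was measurably expressed at this depth and no difference could be detected.

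Of the Irg regulators, Irgm1 (chr11:48861968-48871683, minus strand), which is needed in mice for the maintenance of hematopoietic stem cells under interferon, had the highest level per length (below). It was at 70.6, 75.2 and 70.4 CPM with oil and at 89.7, 125 and 102 CPM with tamoxifen. The lowest tamoxifen library was above the highest oil library, and tamoxifen 4 was not the lowest of its group. The log2 fold change of 0.55 ± 0.13 (SE) had an edgeR adjusted p of 0.0744. It passed with DESeq2 (adjusted p = 0.00501), with edgeR without a filter on low counts (0.0457, 2.42% of genes higher) and with edgeR without tamoxifen 4 (0.00528). Leaving out tamoxifen 2 gave 0.41 (log2), which did not pass (edgeR adjusted p = 0.143).

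Irgm2 and Igtp stand side by side on chromosome 11 (chr11:58199618-58222782 and chr11:58199556-58207591), with annotated models that overlap. Irgm2 was at 11.2, 15.9 and 12.2 CPM with oil and at 17.5, 35.4 and 16.6 CPM with tamoxifen. Its tamoxifen values lay above its oil values, but tamoxifen 1 and 4 did so narrowly (log2 fold change 0.82 ± 0.30, SE, edgeR adjusted p = 0.202). Igtp, whose protein sits on the endoplasmic reticulum and lipid droplets, was at 17.5, 20.2 and 16.9 CPM with oil. With tamoxifen it was at 23.1, 30.9 and 22.5 CPM, again without overlap (log2 fold change 0.49 ± 0.16, SE, edgeR adjusted p = 0.156). Of the Igtp exon bases 8.01% also belonged to Irgm2, and 0.739% of its 150-base windows were identical in Irgm2. The sum of both genes, added after seeing the data, gave 0.64 (edgeR adjusted p = 0.167). Without tamoxifen 4 both genes passed (edgeR adjusted p = 0.0141 for Irgm2 and 0.0149 for Igtp). Without tamoxifen 2 neither passed, with Irgm2 at 0.38 and Igtp at 0.33 (log2, edgeR adjusted p = 0.4665 and 0.398).

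Of the Irg effectors, Ifi47, also called Irgd, was expressed well above Iigp1 per length. Ifi47 (chr11:49076587-49096974) was at 30.1, 34.7 and 36.4 CPM with oil and at 43.6, 49.8 and 40.3 CPM with tamoxifen. The groups did not overlap, and the log2 fold change was the smallest of the 8 at 0.40 ± 0.12 (SE, edgeR adjusted p = 0.136). It was 0.47 without tamoxifen 4 (edgeR adjusted p = 0.00951) and 0.32 without tamoxifen 2 (edgeR adjusted p = 0.370). Of the 7 listed genes with a promoter sequence, Ifi47 was the one that held neither core. Iigp1, also called Irga6 and the best studied effector against Toxoplasma vacuoles, was at 0.675, 1.11 and 0.412 CPM with oil and at 1.04, 2.13 and 0.829 CPM with tamoxifen. Its groups overlapped, and the difference was not resolved with or without tamoxifen 4 (log2 fold change 0.84 ± 0.52, SE, and edgeR adjusted p = 0.372 with all libraries, and 1.09 and 0.133 without).

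**Figure D3:**
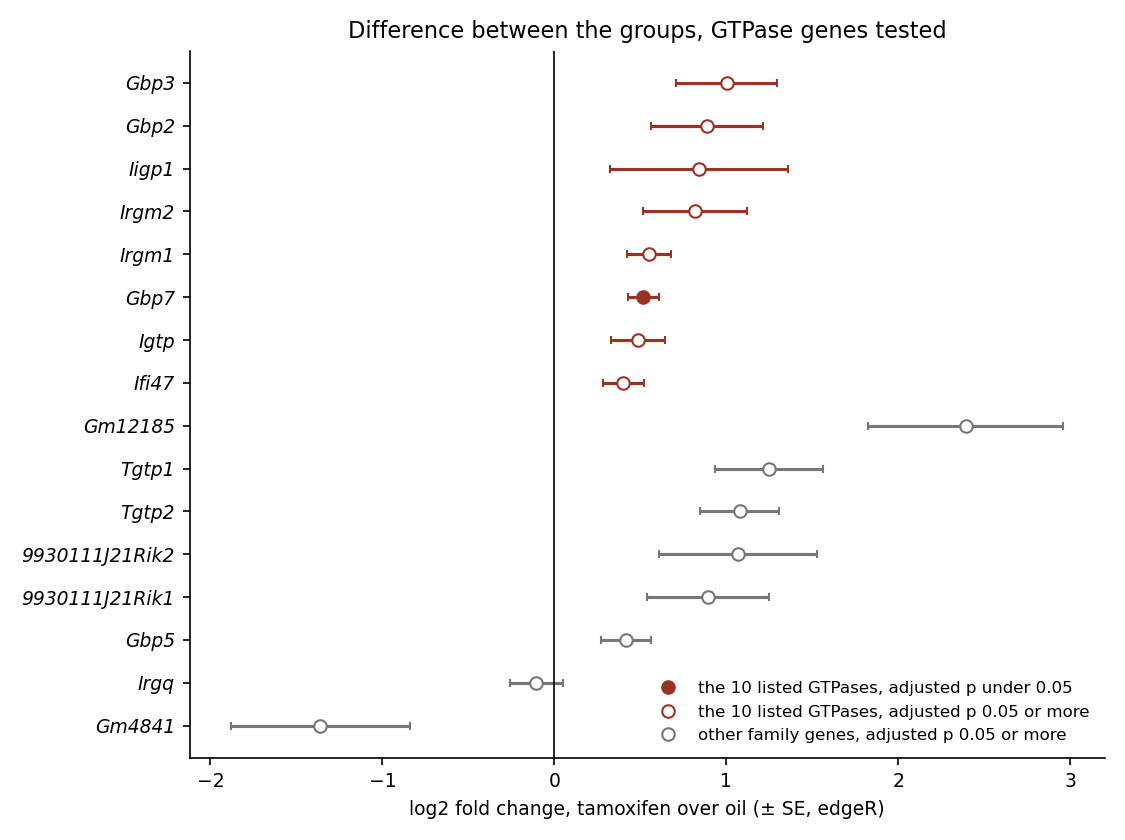
Log2 fold change of tamoxifen over oil for the 16 tested GTPase genes, with SE from edgeR (n = 3 libraries per group); red marks the listed genes, gray other family genes, and a filled point an adjusted p under 0.05. The 8 listed genes lie between 0.40 and 1.0 and only Gbp7 is filled, while Gm4841 lies at -1.36.

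Most other genes of the families also had positive differences. Of 25 further Gbp, Irg and Gvin genes, 23 were in the table and 8 could be tested. None of the 8 passed in edgeR or limma-voom. Tgtp1, Tgtp2 and Gm12185 passed as higher with DESeq2, which called 6.14% of all genes higher. At an unadjusted p under 0.05, 6 were higher and 1 lower, beside 12.6% and 7.99% of all genes. The same numbers did not overlap between groups, beside 13.3% and 11.8% of all genes. The effector pair Tgtp1 and Tgtp2, also called Irgb6, had log2 fold changes of 1.25 ± 0.31 and 1.08 ± 0.23 (SE, edgeR adjusted p = 0.0882 and 0.0600), from 8.97 to 21.4 CPM and from 34.03 to 72.0 CPM on average. Of the 150-base windows of Tgtp2, 68.4% were identical in Tgtp1, so their separate counts are uncertain, and their sum, added after seeing the data, gave 1.12 ± 0.24 (SE, edgeR adjusted p = 0.0624). Gm12185, an Irgb-like gene with the joined element, had the largest difference of the tested family genes, 2.39 ± 0.57 (SE), at a mean of 0.252 CPM with oil and 1.38 CPM with tamoxifen (edgeR adjusted p = 0.0796). It had only 3, 9.5 and 2 counts with oil, so oil 1 and oil 4 did not exceed the limit of 3 counts. Of its exon bases, 3.99% also belonged to Tgtp1. The tandem genes 9930111J21Rik1 and 9930111J21Rik2, which also share sequence, were at 0.89 and 1.07 (log2), with edgeR adjusted p of 0.221 and 0.240. Gbp5, a partner of inflammasome assembly, was at 10.2 to 12.8 CPM with oil and 14.6 to 17.02 CPM with tamoxifen (log2 fold change 0.42 ± 0.15, SE, edgeR adjusted p = 0.188). Without tamoxifen 4, in which 11 of these genes could be tested, 5 passed with edgeR: Tgtp1, Tgtp2, Gm12185, 9930111J21Rik1 and Gm4951. That fit called 19.2% of all genes higher.

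Gm4841, an Irg gene of the Iigp1 cluster, lay on the other side of 0. It was at 3.21, 3.005 and 2.47 CPM with oil and at 0.768, 2.18 and 0.442 CPM with tamoxifen. Every tamoxifen library was below every oil library, beside 11.8% of all genes, and the log2 fold change was -1.36 ± 0.52 (SE, edgeR adjusted p = 0.209). Irgq, a distant relative not known as an interferon target, was at -0.10 ± 0.15 (log2, SE, edgeR adjusted p = 0.710). Gbp2b, known as Gbp1, had no count in any oil library and 9.5, 8 and 2 counts with tamoxifen, too few to test. Gbp4, Gbp10 and Gbp11 had no count in any library. Gvin1 and Gm4070 had the same counts in every library and 95.0% of the windows of Gvin1 were identical in Gm4070.

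Counts were also summed over each gene cluster, so that reads divided among relatives stay together. The 5 Gbp genes of chromosome 3 summed to 150, 148 and 143 CPM with oil and to 209, 244 and 195 CPM with tamoxifen, a log2 fold change of 0.56 ± 0.10 (SE) that passed (edgeR adjusted p = 0.0413). Gbp7 contributed most of this sum. The chromosome 5 Gbp genes summed to at most 6 counts in a library and were not tested. The 11 Irg genes of chromosome 11 summed to 184 ± 10.01 CPM with oil and 301 ± 72.9 CPM with tamoxifen (SD, n = 3 each, log2 fold change 0.71 ± 0.16, SE, edgeR adjusted p = 0.0707). The groups did not overlap, and tamoxifen 2 was the highest at 383 CPM. The 2 loci that make up this sum, split after seeing the data, gave 0.72 for Irgm1 to Ifi47 and 0.64 for Igtp and Irgm2 (log2, edgeR adjusted p = 0.0613 and 0.160).

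The nearest tested genes around the clusters were examined to see whether they moved as well. The 2 nearest tested genes on each side of 5 clusters made 20 genes, none of which passed in edgeR or limma-voom. Lrrc8b and Smim3 passed as higher with DESeq2, which called 6.14% of all genes higher. The 20 genes lay between 8.17 and 460 kb from their cluster, except Isoc1 (1530 kb), Slc12a2 (2270 kb) and Eif4e (3930 kb). Without tamoxifen 4, Lrrc8b, Smim3 and Gtf2b passed as higher and Eif4e as lower in edgeR, beside 19.2% and 17.1% of all genes. At an unadjusted p under 0.05, 3 were higher (Lrrc8b, Isoc1 and Smim3) and 2 lower (Zfp62 and Zfp692), beside 12.6% and 7.99% of all genes. The median log2 fold change of the 20 was -0.0009. The highest, Smim3, lay beyond Iigp1 and was at 0.67 ± 0.16 (log2, SE, edgeR adjusted p = 0.0827).

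Levels of different genes were compared per length, as CPM per kilobase of the longest GENCODE transcript. With oil, Gbp7 was highest at 21.7 ± 0.62 CPM per kilobase (SD, n = 3). Ifi47 (19.0 ± 1.86) and Irgm1 (18.8 ± 0.708) followed, and their ranges over the oil libraries overlapped, so their order is not resolved. Igtp was at 8.99 ± 0.863, Irgm2 at 3.72 ± 0.699 and Gbp2 at 3.496 ± 0.473 CPM per kilobase, the latter pair again overlapping. Gbp3 was at 1.57 ± 0.413 and Iigp1 at 0.235 ± 0.114 CPM per kilobase, and Gbp6 and Gbp9 at 0.0119 and 0.0102. The 8 tested genes thus spanned from 0.235 to 21.7 CPM per kilobase with oil.

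The listed genes had nearly the same order of tamoxifen libraries, while the order of the oil libraries varied, with the highest in oil 3 for 5 genes, in oil 4 for 2 and in oil 1 for 1. All 8 tested genes were highest in tamoxifen 2, and 7 of the 8 had their lowest tamoxifen value in tamoxifen 4 (Irgm1 in tamoxifen 1). Relative to the mean of the oil libraries on the log2 CPM scale (prior count 2), the median of the 8 was -0.04, 0.17 and -0.06 with oil and 0.45, 1.12 and 0.33 with tamoxifen. The median over all genes stayed between -0.0002 and 0.0056. Library tamoxifen 4, which resembled the oil libraries over all genes, was above them in the median of this family, and tamoxifen 1 and 2, which resembled each other at r = 0.987, were far apart in it. With tamoxifen 4 left out, 7 of the 8 passed (all but Iigp1), in a fit in which 19.2% of all genes were called higher. With tamoxifen 2 left out, none passed, in a fit that called 14 genes, or 0.119%, higher.

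**Figure D4:**
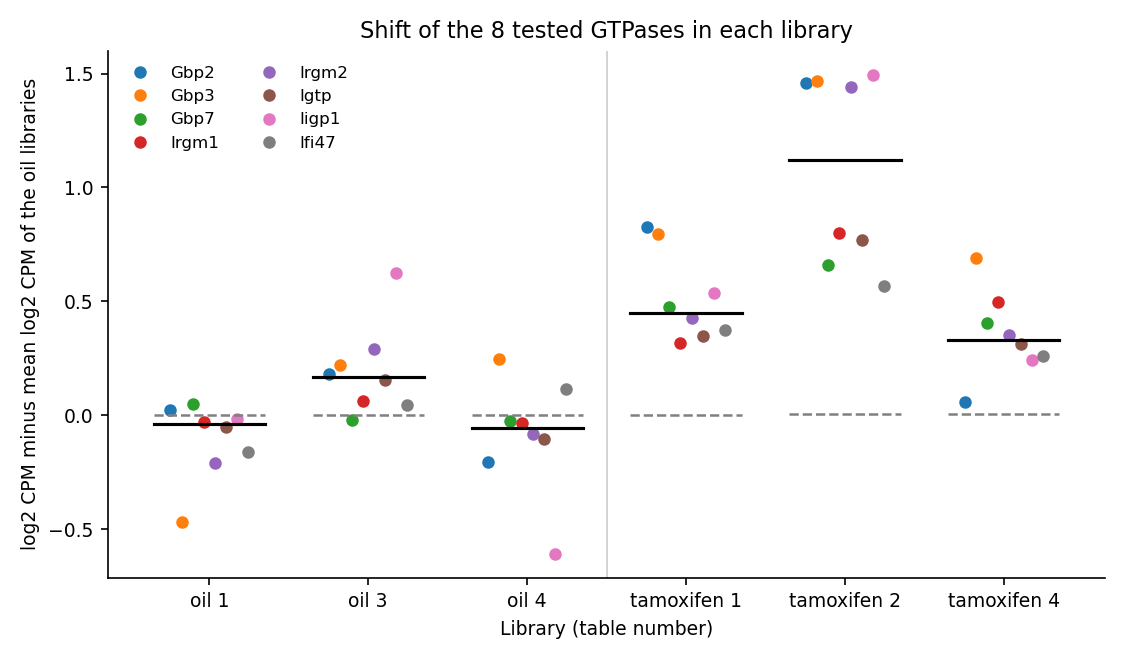
Shift of each of the 8 tested GTPase genes in each library, as log2 CPM minus the mean log2 CPM of the oil libraries; black lines are the median of the 8 genes and dashed gray lines the median of all genes tested. The black line lies at 1.12 in tamoxifen 2 and at 0.45 and 0.33 in tamoxifen 1 and 4, while the dashed lines stay near 0.

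Genes of the interferon pathway are given by role, from lists chosen with earlier results of these data known. Of 17 interferon ligand genes, 15 had no count in any library and none reached the filter. Ifng had 2 counts in oil 1 and Ifne 2 counts in oil 3, so interferon RNA was absent or too low to test at this depth. All 7 receptors and kinases were tested and none passed in edgeR, DESeq2 or limma-voom, nor had any an unadjusted p under 0.05. Their median log2 fold change was 0.10, and those with the smallest p, Tyk2 and Jak2, were at 0.20 ± 0.11 and 0.17 ± 0.13 (log2, SE, edgeR adjusted p = 0.305 and 0.441). Without tamoxifen 4 both passed, at 0.27 and 0.30 (log2, edgeR adjusted p = 0.0409 and 0.0121). None of the 6 tested transcription factors passed with these tools. In edgeR 5 had an unadjusted p under 0.05, all higher, beside 12.6% of all genes. Without tamoxifen 4, a fit that called 19.2% of all genes higher, 4 passed (Irf1, Irf7, Irf9 and Stat2). Irf7, the amplifier of type I interferon, was at 1.48 ± 0.41 and Irf1, a main inducer of Gbp genes, at 0.81 ± 0.27 (log2, SE, edgeR adjusted p = 0.114 and 0.172). Irf7 was at 16.8, 27.2 and 18.5 CPM with oil and at 34.1, 101 and 38.7 CPM with tamoxifen, with tamoxifen 2 the highest library, as in the 8 tested GTPases.

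Of the 5 tested negative regulators, 1 passed. For this and the lists below, edgeR with all libraries called 1.75% of all genes higher. Socs1, an inhibitor of JAK kinases, rose from 39.9 ± 3.62 to 88.1 ± 28.5 CPM (SD, n = 3 each, log2 fold change 1.14 ± 0.22, SE, edgeR adjusted p = 0.0438). Without tamoxifen 4, Usp18 and Ptpn2 passed as well, in a fit that called 19.2% of all genes higher. Of 12 tested genes that respond mainly to type I interferon, 1 passed, Mx2, a dynamin-like GTPase outside these families (0.0989 ± 0.0970 against 2.13 ± 1.15 CPM, SD, edgeR adjusted p = 0.0399). Of these 12, 9 were higher and 1, Ifit2, lower at an unadjusted p under 0.05, beside 12.6% and 7.99% of all genes. The median log2 fold change of the 12 was 1.02. With DESeq2, which called 6.14% of all genes higher, 7 of the 12 passed, all higher (Dhx58, Ifit1, Isg15, Mx1, Mx2, Oasl2 and Rsad2). None passed with limma-voom. Without tamoxifen 4 edgeR called 8 higher and Ifit2 lower, beside 19.2% and 17.1% of all genes. Of 11 genes that respond mainly to type II interferon, 2 had enough counts to test, and Serpina3g passed (0.0563, 0 and 0.257 CPM with oil, 149, 155 and 6.52 CPM with tamoxifen, edgeR adjusted p = 0.0342). The other, Cd74, was at 3.49, 1.84 and 2.37 CPM with oil and at 4.39, 1.71 and 1.55 CPM with tamoxifen, and its groups overlapped (edgeR adjusted p = 0.999). Cxcl9, Ido1 and Batf2 had no count in any library.

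Genes for partners of the GTPase proteins mostly had differences near 0. The 5 genes that prenylate guanylate-binding proteins and the 10 genes of ATG8 conjugation, which directs Irg and Gbp proteins to vacuoles, were all tested and none passed in edgeR, DESeq2 or limma-voom. Their median log2 fold changes were 0.04 and 0.06, and only Atg5 had an unadjusted p under 0.05, at -0.33 ± 0.13 (log2, SE, edgeR adjusted p = 0.205). Without tamoxifen 4, none of the prenylation genes passed. Of the 10 ATG8 genes, Atg16l1 and Map1lc3b passed as higher and Atg3 and Atg5 as lower (for Atg5 -0.44 on the log2 scale, edgeR adjusted p = 0.0145). That fit called 19.2% of all genes higher and 17.1% lower, so these calls do not set the ATG8 genes apart. Of 4 tested inflammasome partners, Casp4 (caspase-11, the sensor of lipopolysaccharide that Gbp proteins assist) rose from 0.879 ± 0.312 to 3.29 ± 0.971 CPM (SD, n = 3 each, edgeR adjusted p = 0.0454). The calls of Socs1, Mx2, Serpina3g and Casp4, like that of Gbp7, were lost when any library other than tamoxifen 4 was left out (edgeR adjusted p between 0.0766 and 0.211), and all 5 were lost with limma-voom (adjusted p between 0.0545 and 0.302). Without tamoxifen 4, Casp1 passed as well, in a fit that called 19.2% of all genes higher.

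**Figure D5:**
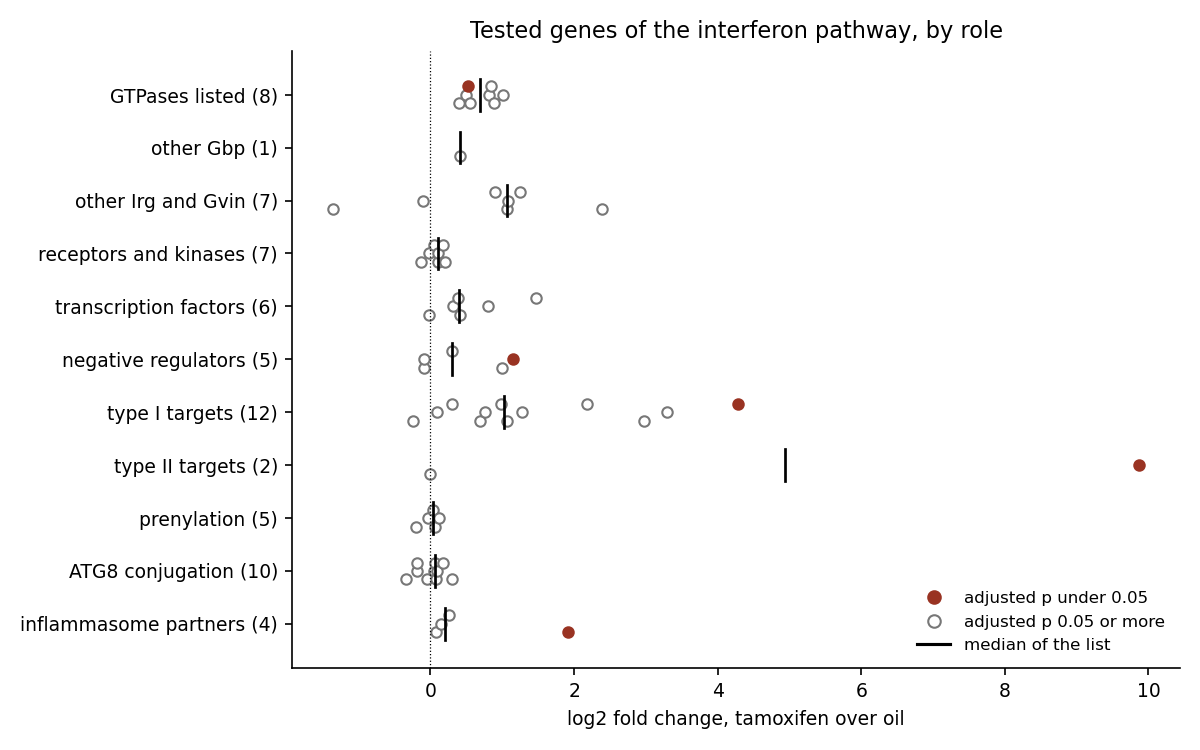
Log2 fold change of tamoxifen over oil for every tested gene of 11 lists, by role, with the number tested in brackets; black bars are list medians and red points have an edgeR adjusted p under 0.05. Receptors and kinases, prenylation and ATG8 genes lie near 0, with medians of 0.10, 0.04 and 0.06, and the listed GTPases all lie above 0 with a median of 0.68.

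Genes whose levels followed the mean of the 8 GTPases most closely over the 6 libraries were Sp100 (r = 0.998), Mx1 (0.994), Tnik (0.994), Parp9 (0.993) and Cpne5 (0.992), among genes at a mean of at least 1 CPM. The same 5 came out with a prior count of 0.5. Sp100, a nuclear body protein, was at 100, 117 and 99.0 CPM with oil and at 162, 242 and 144 CPM with tamoxifen, and so had its highest value in tamoxifen 2. None of the 5 passed in edgeR (adjusted p between 0.0800 and 0.183, all 5 under 0.05 unadjusted). With DESeq2, which called 6.14% of all genes higher, 4 passed. The mean they were picked to follow was higher in every tamoxifen library than in every oil library. Low p-values therefore follow from the choice and are no independent result. The correlations are a description over 6 libraries that fall into 2 groups.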

How the data were processed

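RNA from sorted leukemia cells of 6 mice, 3 per group, was sequenced. The authors deposited a table of estimated counts by gene symbol, not scaled between libraries. The submitters' processing notes name STAR, DESeq2 and mm10, without roles; counting program, annotation and strand setting are not given in the sources used here. The smallest positive value was 0.5, and between 25.9% and 27.3% of values per library were not whole. Columns number the libraries oil 1, 3, 4 and tamoxifen 1, 2, 4, and sample titles number them otherwise; oil 3 and tamoxifen 2 were placed by group only.

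Counts were rounded, filtered with filterByExpr and tested in R 4.3.3 with edgeR 4.0.16 (TMM, quasi-likelihood, Benjamini-Hochberg over 11614 genes), tested first on simulated data. SE came from the F statistics. Alternatives used DESeq2 1.42.0, limma 3.58.1, other scalings and filters, a replicate block and each library left out. Lengths and positions came from GENCODE M21 in place of the planned RefSeq lengths, promoters from RefSeq GRCm38.p6.

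Members and lists were chosen with earlier results of these data known. Named were all members, tested relatives, regulators called or of smallest p, at most 3 genes of each other list and the 5 most alike genes. The test of 1 erythroid marker is not reported here. The limit of 3 counts covers counting error only, whereas SD and SE include differences between libraries.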

Additional observations from a re-analysis of the deposited data

How the results depend on the processing

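Genes called higher and lower with tamoxifen (203 and 31) became 713 and 231 with the DESeq2 Wald test, 48 and 6 with limma-voom, 372 and 61 without a low-count filter, 120 and 17 at a mean of at least 50 counts, and 8 to 2278 and 0 to 2024 with 1 library left out, the highest being without tamoxifen 4. GTPases called (1) became 3 with DESeq2 (Gbp3, Gbp7 and Irgm1), 0 with limma-voom, 2 without the filter (Gbp7 and Irgm1), 0 with the replicate block and 0 to 7 with 1 library left out. The median log2 fold change of the GTPases stayed above 0, between 0.39 (without tamoxifen 2) and 0.79, and 6 to 8 did not overlap between groups. All 8 did so without oil 3, beside 2110 of 11841 genes higher without overlap. Without tamoxifen 4 it was 7, beside 3724 of 11851, and with all libraries 6, beside 1545 of 11614. The chromosome 3 Gbp sum lost its call with limma-voom (0.55), the replicate block (0.46) and 1 library left out (0.46 to 0.62), except without tamoxifen 4. The chromosome 11 Irg sum gained a call with DESeq2 (0.71), without the filter (0.70) and without tamoxifen 4, with 0.50 to 0.83 over the libraries left out. Irgq turned to 0.014 with the replicate block and lay between -0.23 and 0.010 over the libraries left out. Without length correction 6 of 10 genes kept their rank. The cause was not tested. Among refits of the 8 GTPases tested, 97 kept their side of the threshold, 9 gained a call, 7 lost it (all for Gbp7) and none changed direction.

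Library numbers 1 and 4 occur in both groups. The deviations from the group means of libraries that share a number had r of -0.13 and 0.06. These values cannot decide whether such libraries were paired, as tamoxifen 4 stood apart from its group and sample titles number the libraries otherwise. With the replicate block, which leaves 1 residual degree of freedom, 215 genes were higher and 26 lower. With 3 libraries per group, differences of low genes such as Iigp1 stayed unresolved.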
